A study of Mus musculus with 9 samples.

Results

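Repeat names of the ERVB and MMERVK endogenous retroviruses were followed through the high-salt recovered (HRS) fraction, the Loop fraction and unfractionated DNA of mouse embryonic stem cells. The names were taken from the repeat tables as every name that begins with ERVB, MMERVK or MERVK. This gave 27 of the 312 names with a count in at least 1 library: 22 ERVB names, 5 MMERVK names and 0 MERVK names. Although the group is one of internal retrovirus names by its working title, 12 names are marked as internal sequence and 14 are long terminal repeats (LTRs). MMERVK10C carries neither mark.

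An endogenous retrovirus is the germline remnant of a retroviral insertion. Its internal part carries the remains of the gag, pro and pol genes, and an LTR at each end holds the promoter and enhancer. Recombination between the LTRs of a provirus removes the internal part and leaves a solo LTR, so LTR and internal copies of a family need not be equally frequent. The names studied here belong to the betaretrovirus-like ERVK class. In embryonic stem cells such elements are kept silent by histone H3 lysine 9 methylation that depends on TRIM28 and SETDB1, and MMERVK10C is known as an element that is derepressed when these factors are lost.

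All libraries came from 1 line, E14Tg2a, with a 129P2 background, grown on gelatin with LIF, and the labels name no genotype or drug that distinguishes the groups. In the HRS assay nuclei are treated with high salt and their DNA is cut with a restriction enzyme, here StyI. HRS is the DNA that is retained, Loop is the DNA that is released, and input is genomic DNA that was not fractionated (3 libraries each). The inputs are titled D0, D12 and D21, which the labels do not explain. Whether replicates were separate cultures is not stated, and the p-values then reflect only how far these libraries spread, which may be technical. The data are DNA tags, and the identity of the cells was not checked against expression markers. A tag of StyI-cut DNA is counted only where an element has a StyI site, and element lengths were not used, so a level says nothing of copies per length and is compared across libraries only.

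The repeat tables summed to between 1676310 and 2665504 counts. Levels below are counts per 1000000 counts of the library's own repeat table (CPM), with SD over libraries. Of the 27 names, 26 had a count in every library. Of these, 19 had at least 400 counts in every library, which gives 95% Wilson intervals of at most ± 9.63% of the value. Intervals cover counting error only, since the tags carry no molecular identifiers.

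The 6 fraction tables did not group by their labels. A letter in the deposited name of each table, which no label explains, separated them instead. A is carried by the tables of HRS replicates 1 and 3 and of Loop replicate 2. B is carried by the tables of Loop replicates 1 and 3 and of HRS replicate 2. The D0 input carries B, the D21 input carries A and the D12 input carries no letter. In what follows, A and B tables are those of the 6 fraction libraries. Satellite names took 3.85% to 4.45% of the A tables and 0.302% to 0.698% of the B tables, with 2.1% in the D21 input, 1.16% in D12 and 0.892% in D0. The totals were 1676310 to 2292431 counts for A, 2542603 to 2617181 for B and 2485703 to 2665504 for the inputs. These values moved with the letter, and the part of the totals in the results by letter was not tested. Each comparison of fractions is therefore given with and without the replicate 2 tables, whose letter differs from that of their fraction's other tables. Were the repeat tables of HRS replicate 2 and Loop replicate 2 exchanged, letter and fraction would coincide, and every difference by letter would be one between HRS and Loop. Whether they were exchanged was not tested, and libraries were kept under their labels.

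The 27 names together took 6.34%, 7.23% and 6.5% of the repeat table in HRS replicates 1, 2 and 3. They took 7.05%, 6.55% and 7.04% in Loop replicates 1, 2 and 3, and 6.52%, 6.53% and 6.26% in the D0, D12 and D21 inputs. HRS and Loop overlapped, with means of 6.69% ± 0.476 and 6.88% ± 0.284 (SD, n = 3 each). By letter the tables did not overlap: the sum was 6.46% ± 0.112 in A and 7.1% ± 0.108 in B (SD, n = 3 each). The sum of the internal names and that of the LTR names were both higher in B, at 4.46% against 3.84% and 1.63% against 1.18%. MMERVK10C went the other way, with 1.01% ± 0.18 in B and 1.44% ± 0.0346 in A. Most of the difference in the LTR sum came from ERVB4_1B-LTR_MM, with means of 6803 CPM in B and 2497 in A. The LTR names did not all share that direction: ERVB4_3-LTR_MM averaged 193 CPM in B and 249 in A.

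**Figure D1:**
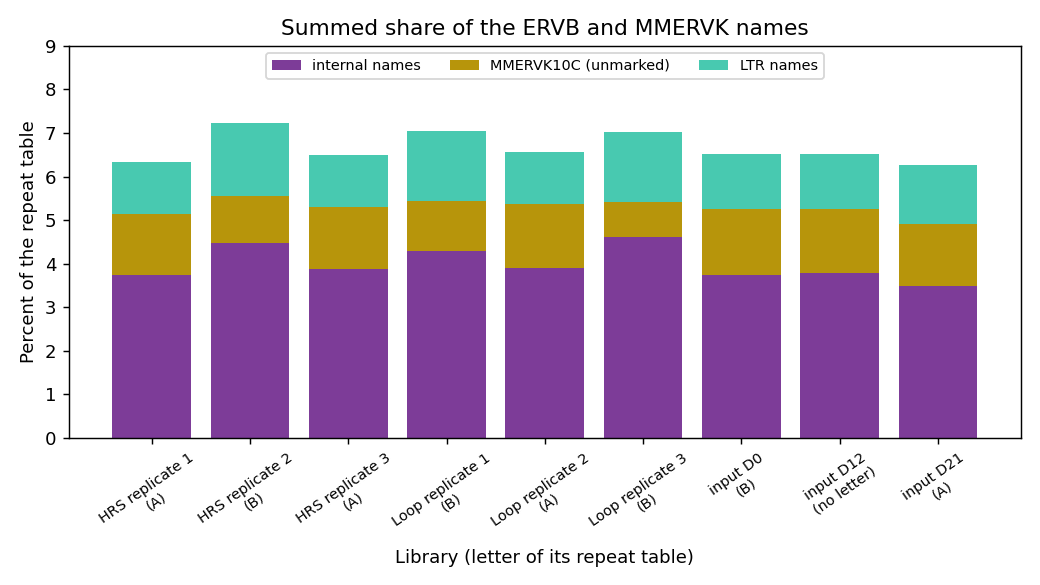
Summed share of the 27 names (percent of the repeat table, vertical axis) in each of the 9 libraries, divided into internal names, MMERVK10C and LTR names. The 3 fraction tables of letter B reach 7.04% to 7.23%, above the other 6 libraries, whatever their fraction.

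A few names held most of the counts. MMERVK10C contributed 19.4% of the counts of the 27 names over all libraries, MMERVK9E_I 16.7% and ERVB4_2-I_MM 13.5%. In the 3 B tables the order differed, and MMERVK9E_I was above MMERVK10C in each. At the other end, 5 LTR names averaged under 30 CPM. ERVB7_1-LTR_MM had 0 to 6 counts per library and was the 1 name that failed the filter on low counts in each comparison. It was at 0 in HRS replicate 1 and Loop replicate 3, which allows up to 1.31 and 1.16 CPM.

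**Figure D2:**
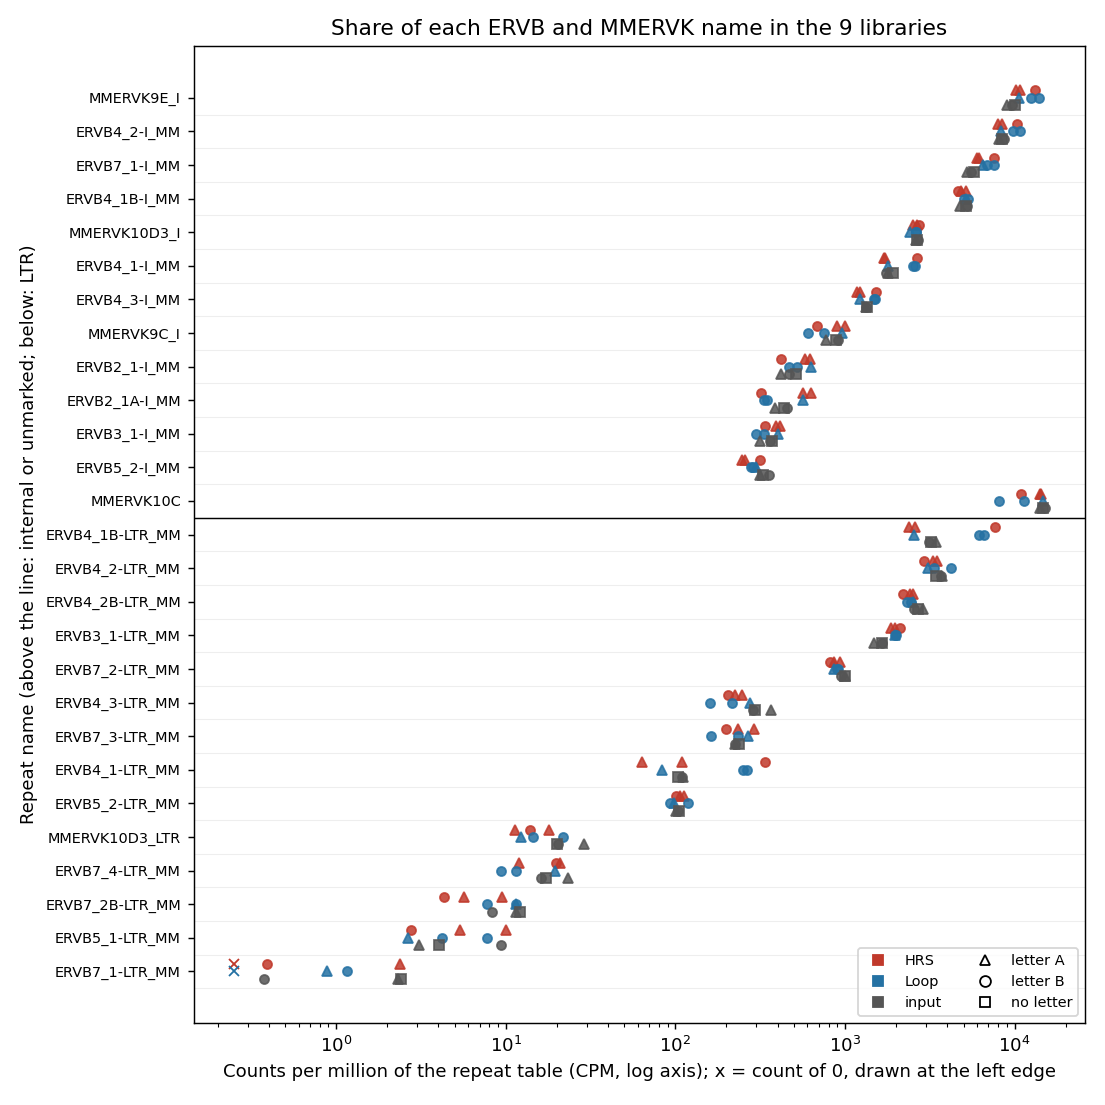
Share of each name in CPM (log axis) in the 9 libraries, with colour for the fraction and marker shape for the letter; internal names and MMERVK10C stand above the line and LTR names below it. The names span from a count of 0 (ERVB7_1-LTR_MM) to 15094 CPM (MMERVK10C in the D0 input), and for ERVB4_1B-LTR_MM the circles of letter B in HRS and Loop stand apart from the triangles of letter A.

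The first comparison asked whether these retroviruses are retained with the HRS fraction or released with Loop. Of the 26 names tested, 0 passed an adjusted p of 0.05 in edgeR's quasi-likelihood test and 0 had an unadjusted p under 0.05. DESeq2 also called 0. Over all 289 repeat names tested, 0% were called. The CPM values of HRS and Loop overlapped for all 27 names, while they did not overlap for 2.77% of all names tested.

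MMERVK10C, the most abundant of the names over the 9 libraries together, held 14225, 10943 and 14172 CPM in HRS replicates 1, 2 and 3 and 11316, 14796 and 8035 CPM in Loop replicates 1, 2 and 3. Replicate 2 was the lowest library of HRS and the highest of Loop, and the fractions overlapped. Its log2 ratio between HRS and Loop came to 0.19 ± 0.21 (SE, positive where HRS is higher, edgeR adjusted p = 0.975). Leaving out 1 library at a time moved this ratio from 0.01 (without Loop replicate 3) to 0.40 (without Loop replicate 2). With the letter as a further term it was 0.06. The highest and the lowest ratio of the 26 names belonged to scarce LTRs, and a further scarce LTR was among the 3 highest. ERVB7_4-LTR_MM had 20 to 61 counts per library and a log2 ratio of 0.40 ± 0.35, and ERVB5_1-LTR_MM had 6 to 25 counts and 0.26 ± 0.60. ERVB7_2B-LTR_MM had 11 to 30 counts and the lowest ratio, -0.71 ± 0.34. None of these LTRs passed, and what difference could be detected at such counts was not tested.

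The remaining names at the ends of the order were abundant enough to be measured, but varied widely within a fraction. ERVB2_1A-I_MM, an internal sequence, had a log2 ratio of 0.27 ± 0.29 (SE). ERVB4_1B-LTR_MM had -0.29 ± 0.58 and ERVB4_1-LTR_MM -0.23 ± 0.70. The adjusted p (edgeR) of all 6 names at the ends of the order was 0.975. With the letter as a further term the ratios of both LTRs changed sign, to 0.12 and 0.26, and 0 names passed.

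Without both replicate 2 tables, 9 of the names passed between HRS and Loop, 3 higher in HRS and 6 lower, while 77 of all 292 names passed (26.4%; 32 higher and 45 lower). MMERVK10C then had a log2 ratio of 0.50 (adjusted p = 0.0117), ERVB2_1A-I_MM 0.76 and MMERVK9C_I 0.42. The lower ones were led by ERVB4_1-LTR_MM at -1.61 and ERVB4_1B-LTR_MM at -1.42 (adjusted p = 1.19e-07). In this fit both HRS tables carry A and both Loop tables carry B, so fraction and letter cannot be told apart. The omitted tables are those whose letter is not shared with the others of their fraction.

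The second comparison was by letter, with the fraction as a term. It found 11 of the 26 names past the threshold, 4 higher in A and 7 higher in B. Over all 289 names 32.5% were called, 13.1% higher in A and 19.4% higher in B, so the share among these names, though larger, is not far from that of the tables as a whole. Values did not overlap between letters for 14 of the 26 names, against 49.5% of all names tested. The median log2 ratio of A over B was -0.03 over these names and -0.01 over all names. Over all names 38 were called higher in A and 56 higher in B, which became 22 and 83 with the fragment table totals as library sizes and 45 and 39 with the repeat table totals. Among the 26 names the 4 and 7 became 2 and 10 with the former and 5 and 6 with the latter.

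ERVB4_1-LTR_MM, ERVB4_1B-LTR_MM and ERVB4_1-I_MM led the B side. ERVB4_1B-LTR_MM held 2586 and 2369 CPM in HRS replicates 1 and 3 and 2536 in Loop replicate 2, all tables of letter A. It held 7671 in HRS replicate 2 and 6595 and 6142 in Loop replicates 1 and 3, all of letter B. The letters were far apart and the spread inside each was small, with 2497 ± 113 CPM in A and 6803 ± 785 in B (SD, n = 3 each). Its log2 ratio of A over B was -1.54 ± 0.10 (SE, edgeR adjusted p = 1.29e-06). The inputs, at 3116, 3234 and 3430 CPM, lay between the letters and closer to A.

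ERVB4_1-LTR_MM gave the largest ratio, -1.86 ± 0.18 (SE, edgeR adjusted p = 1.78e-05). It held 109 and 63.8 CPM in HRS replicates 1 and 3 and 83.3 in Loop replicate 2, against 339 in HRS replicate 2 and 266 and 250 in Loop replicates 1 and 3. The inputs held 109, 103 and 111 CPM, close to the highest A table and below every B table. Its internal partner ERVB4_1-I_MM moved in the same direction by less. That name held 1686, 1717 and 1784 CPM in the A tables and 2658, 2500 and 2593 in the B tables, a log2 ratio of -0.64 ± 0.09 (adjusted p = 0.00029).

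The internal partner of ERVB4_1B-LTR_MM did not pass the test. ERVB4_1B-I_MM held 5048 ± 215 CPM in the A tables, 4989 ± 315 in the B tables and 5047 ± 254 in the inputs (SD over 3 libraries each). Its log2 ratio was -0.01 ± 0.09. The LTR count over the internal count of the same library, a ratio that no scaling touches, was therefore followed for the 8 families with both names. For ERVB4_1B it was 0.539, 0.459 and 0.489 in the A tables and 1.64, 1.32 and 1.16 in the B tables, with 0.599, 0.624 and 0.722 in the inputs. For ERVB4_1 it was 0.0495 ± 0.014 in A and 0.11 ± 0.0159 in B, and for ERVB3_1 4.82 ± 0.262 and 6.31 ± 0.316. The ratio of ERVB4_3 was the reverse, at 0.206 ± 0.0179 in A and 0.128 ± 0.0205 in B. In these 4 families the letters did not overlap, and in ERVB4_2, ERVB5_2, ERVB7_1 and MMERVK10D3 they did. These ratios are described without a test, and the share of such separations was not computed for other families. Of all single names tested, 49.5% did not overlap between letters.

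**Figure D3:**
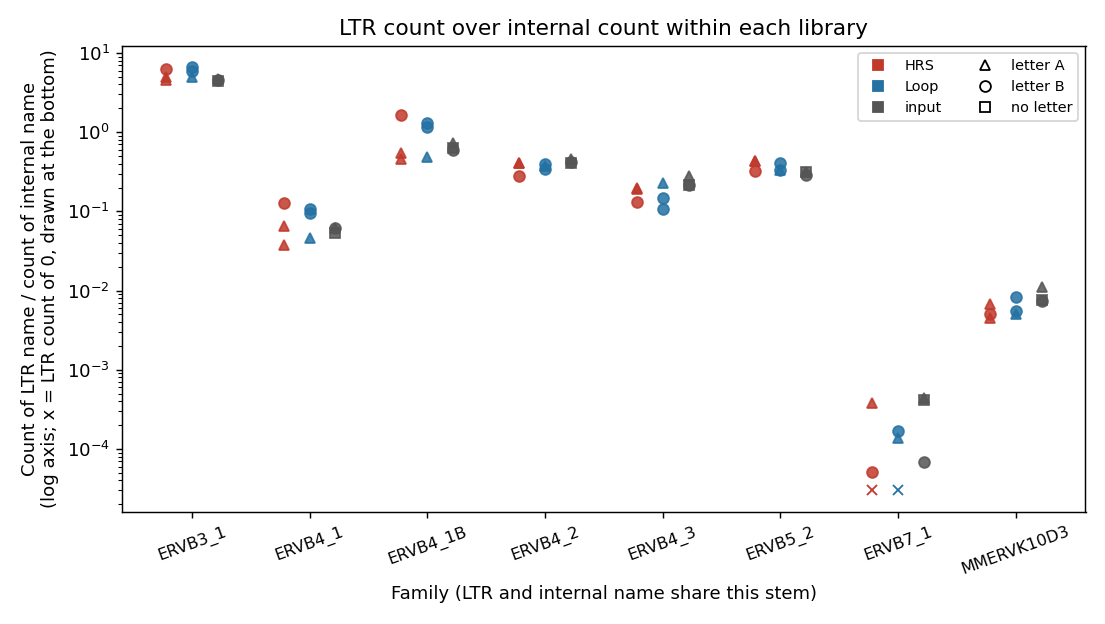
Count of the LTR name divided by that of the internal name of the same family (log axis) in each library, with colour for the fraction and shape for the letter. For ERVB4_1B the 3 letter B fraction tables lie at 1.16 to 1.64 and all other libraries at 0.459 to 0.722.

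Other internal names were also higher in B. MMERVK9E_I held 10246, 10774 and 10672 CPM in the A tables and 13159, 12413 and 13932 in the B tables (log2 ratio -0.38 ± 0.09, adjusted p = 0.0116). ERVB4_3-I_MM held 1210 ± 25.1 CPM in A and 1507 ± 18.1 in B (-0.38 ± 0.09, adjusted p = 0.007). ERVB4_2-I_MM, at 8263 ± 257 CPM in A and 10289 ± 437 in B, and ERVB7_1-I_MM, at 6214 ± 264 and 7318 ± 397, passed as well. Both missed the threshold without HRS replicate 1 (adjusted p = 0.0729 and 0.161), HRS replicate 2 (0.121 and 0.388) or Loop replicate 2 (0.0702 and 0.0814). ERVB7_1-I_MM also missed it without HRS replicate 3 (0.0906) and with repeat table totals as library sizes (0.0701). MMERVK9E_I missed the threshold without HRS replicate 1 (adjusted p = 0.0801), HRS replicate 2 (0.121) or Loop replicate 2 (0.0796). ERVB4_3-I_MM missed it without HRS replicate 2 (0.107) or Loop replicate 2 (0.0509).

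The 4 names higher in A were MMERVK10C and 3 internal sequences. ERVB2_1A-I_MM held 634, 562 and 565 CPM in the A tables and 321, 348 and 332 in the B tables, a log2 ratio of 0.75 ± 0.09 (SE, edgeR adjusted p = 0.000105). MMERVK10C held 14397 ± 346 CPM in A and 10098 ± 1797 in B (SD, n = 3 each), with the lowest value in Loop replicate 3. Its log2 ratio was 0.44 ± 0.12 (adjusted p = 0.0167), and it missed the threshold without HRS replicate 1 (0.0609) or Loop replicate 2 (0.233). With fragment table totals as library sizes it was 0.30 (adjusted p = 0.0632). MMERVK9C_I, at 951 ± 51.3 CPM in A and 680 ± 74.9 in B, had 0.43 ± 0.10 (adjusted p = 0.0065). It missed the threshold without HRS replicate 2 (0.0516) or Loop replicate 2 (0.0738). ERVB2_1-I_MM, at 610 ± 25.5 and 467 ± 52 CPM, had 0.38 ± 0.09 (adjusted p = 0.0065) and missed it without HRS replicate 2 (0.191) and with fragment table totals (log2 ratio 0.24, adjusted p = 0.0654).

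**Figure D4:**
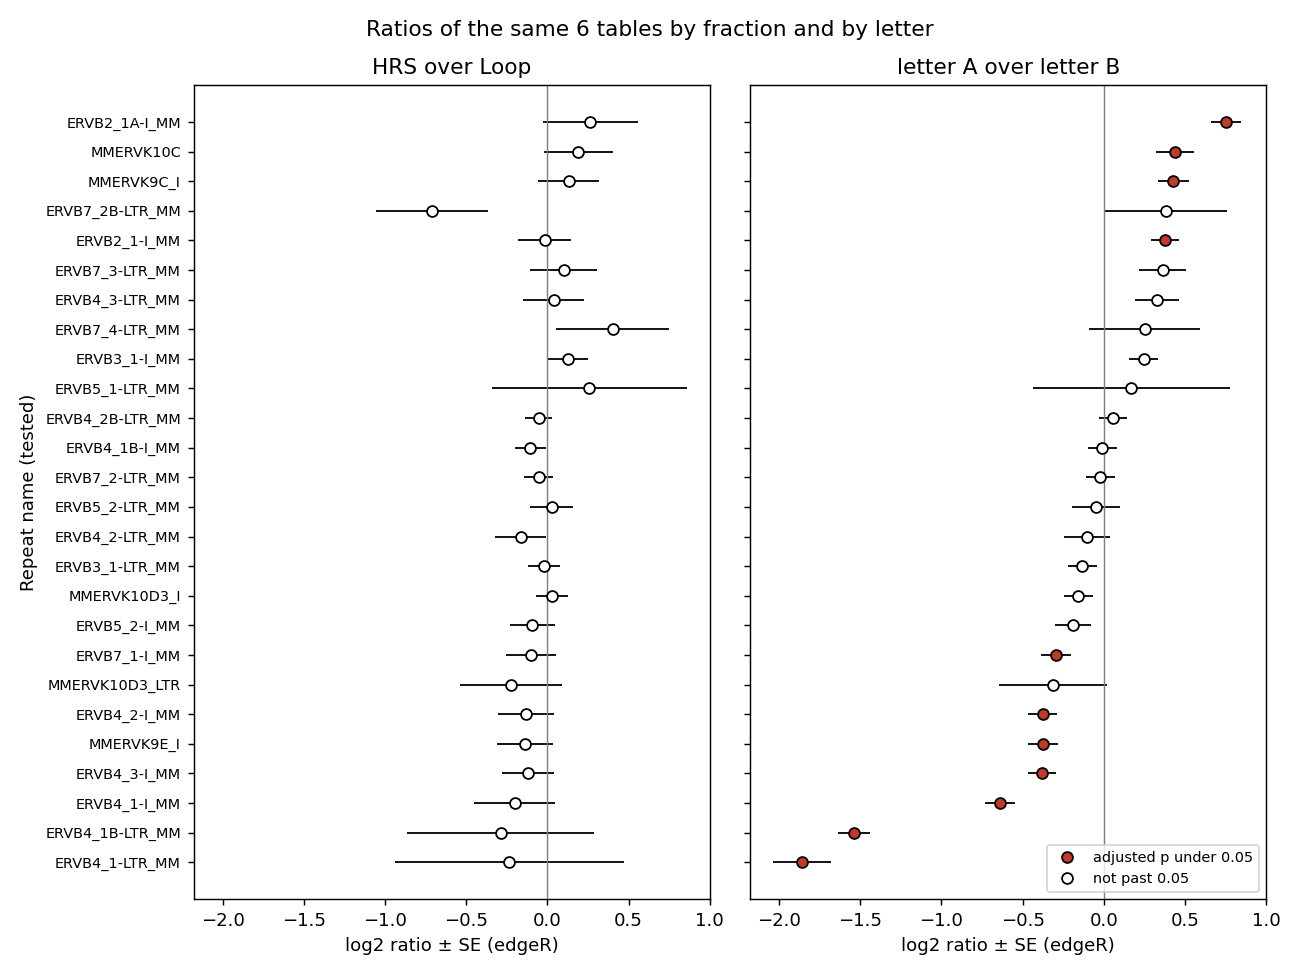
Log2 ratio ± SE (edgeR) of the 26 tested names for HRS over Loop (left) and for letter A over letter B (right), both from the same 6 tables; filled points have an adjusted p under 0.05. No point is filled on the left and 11 are filled on the right, from -1.86 (ERVB4_1-LTR_MM) to 0.75 (ERVB2_1A-I_MM).

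The other 15 tested names did not pass between letters. The nearest to the threshold were the internal ERVB3_1-I_MM, with 403 ± 11.6 CPM in A and 323 ± 20.7 in B, and the LTRs ERVB7_3-LTR_MM (265 ± 29 and 199 ± 36.4) and ERVB4_3-LTR_MM (249 ± 25.1 and 193 ± 30.1). ERVB3_1-I_MM and ERVB4_3-LTR_MM had values that did not overlap between letters. Those of ERVB3_1-LTR_MM did not overlap either, with 2034 ± 71.2 CPM in B and 1943 ± 55.4 in A. Its highest A table (1981 CPM) and lowest B table (1984 CPM) differ by less than the counting error. ERVB5_2-LTR_MM and ERVB7_2-LTR_MM held close means in both, at 106 ± 6.78 and 104 ± 12.6 CPM for the former and 885 ± 41.2 and 871 ± 52.1 for the latter. ERVB4_2-LTR_MM had 3491 ± 640 CPM in B and 3282 ± 190 in A.

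Names with the same stem did not always share a direction. MMERVK9C_I was higher in A and MMERVK9E_I in B, while MMERVK10D3_I had 2529 ± 124 CPM in A and 2649 ± 64.9 in B and did not pass. Between letters 2 of the 13 tested LTR names passed and 8 of the 12 internal names, a difference that was not tested, and 4 of these LTR names had under 100 counts per library. The difference between the ratio of HRS over Loop in A and that in B was tested by an interaction term, and 0 of the 26 names passed in edgeR, with 1 at an unadjusted p under 0.05. Over all 289 names 1 passed and 12 had an unadjusted p under 0.05. This term was not run in DESeq2. HRS of letter B and Loop of letter A hold 1 library each, both of replicate 2, so the term rests on those tables. It cannot show that the ratio is the same in both letters.

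For the called names the inputs did not all divide by letter as the fractions did. Of the 11 names called between letters, 4 differed between the D21 and D0 inputs in the direction of the fractions and 7 in the opposite direction. The 4 were ERVB4_2-I_MM, ERVB4_3-I_MM, ERVB7_1-I_MM and MMERVK9E_I. The split takes the sign alone, and some differences lie inside the counting error. ERVB4_1-LTR_MM, among the 7, had 290 counts in both inputs. ERVB4_3-I_MM, among the 4, held 1330 CPM in D0 and 1321 in D21. This split was not computed over all called names. The satellite share, at 2.1% in D21 and 0.892% in D0, did differ in the direction of the fractions. For ERVB4_1B-LTR_MM the D0 input, of letter B, was 0.908 times the D21 input, of letter A, and for MMERVK10C it was 1.063 times. For ERVB2_1A-I_MM the D0 input, at 452 CPM, was above D21, at 387. In each of these 3 names the direction was the opposite of that in the fractions. There is 1 input of each letter, so this comparison has no replicate check.

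Each fraction was then set against input. By label 0 of 26 names passed for HRS and 0 of 26 for Loop in edgeR, with 5 and 7 at an unadjusted p under 0.05. Over all names 0% were called in either comparison (0 of 291 and 0 of 288), with 54 and 75 at an unadjusted p under 0.05. DESeq2 called 1 name (ERVB3_1-LTR_MM) for HRS and 3 (ERVB3_1-LTR_MM, ERVB7_1-I_MM and MMERVK9E_I) for Loop, all higher than input, among 24 and 37 of all names. MMERVK10C had a log2 ratio of -0.10 ± 0.11 for HRS over input and -0.30 ± 0.18 for Loop over input (SE, edgeR adjusted p = 0.6 and 0.336). Both comparisons use the same 3 inputs.

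These counts changed when a replicate 2 table was left out. Without HRS replicate 2, leaving HRS tables of letter A alone, 5 names passed against input, as did 69 of all 293 names (23.5%). ERVB2_1A-I_MM (log2 ratio 0.53), ERVB2_1-I_MM (0.40) and ERVB3_1-LTR_MM (0.31) were higher, and ERVB5_2-I_MM (-0.37) and ERVB4_1B-LTR_MM (-0.36) lower. Without Loop replicate 2, leaving Loop tables of letter B alone, 10 passed, 8 higher and 2 lower, as did 115 of all 290 names (39.7%). ERVB4_1-LTR_MM (1.35) and ERVB4_1B-LTR_MM (1.06) led the higher ones, and ERVB4_3-LTR_MM (-0.66) and MMERVK10C (-0.51) were the lower ones. ERVB4_1B-LTR_MM was thus below input in the former fit and above it in the latter. ERVB3_1-LTR_MM was called higher in both.

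A comparison of the 6 fraction tables together with input was added after the data were seen, because each side of it then holds both letters. The input side holds 1 table of A, 1 of B and 1 without a letter, so what moves with the letter need not be balanced between the sides. It called 1 of the 26 names, ERVB3_1-LTR_MM. Over all 292 names 9.25% were called, 5.14% higher and 4.11% lower. Values of 7 of the 26 names did not overlap between fractions and inputs, against 22.3% of all names tested. DESeq2 called 4 of these names and 47 of all names (15.1%).

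ERVB3_1-LTR_MM held 1968, 2115 and 1879 CPM in HRS replicates 1, 2 and 3 and 2001, 1981 and 1984 in Loop replicates 1, 2 and 3. The inputs D0, D12 and D21 held 1647, 1647 and 1486. Each fraction table lay above each input, in both letters, while HRS (1987 ± 119) and Loop (1989 ± 11.1, SD, n = 3 each) overlapped. The B tables also lay above the A tables, though the name did not pass between letters. The nearest of these, Loop replicate 2 (A, 1981 CPM) and Loop replicate 3 (B, 1984 CPM), differ by less than the counting error. The log2 ratio of the fractions over input was 0.39 ± 0.06 (SE, edgeR adjusted p = 0.0253). Without the D0, D12 or D21 input the ratio was 0.43, 0.40 and 0.38 with an adjusted p of 0.0608, 0.0673 and 0.125. With fragment table totals as library sizes it was 0.27 (adjusted p = 0.209).

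Another 6 names showed the same separation without passing edgeR's threshold. MMERVK9E_I held 10246 to 13932 CPM in the fractions and 9027 to 10038 in input, a log2 ratio of 0.39 ± 0.12 (adjusted p = 0.0898). ERVB7_1-I_MM held 5961 to 7584 and 5254 to 5772 (0.37 ± 0.10, adjusted p = 0.0569). Both of these were also higher in letter B than in letter A. On the other side, ERVB4_3-LTR_MM was at 221 ± 39.4 CPM in the fractions (SD, n = 6) and 315 ± 43.7 in input (SD, n = 3). ERVB4_2B-LTR_MM, ERVB5_2-I_MM and ERVB7_2-LTR_MM were each lower in all 6 fraction tables than in any input. For ERVB5_2-I_MM, HRS replicate 2 and the D21 input both round to 316 CPM, a gap well inside the counting error. The highest fraction table and the lowest input also differed by less than that error for the other lower names. They held 2525 and 2535 CPM for ERVB4_2B-LTR_MM, 932 and 945 for ERVB7_2-LTR_MM, and 275 and 287 for ERVB4_3-LTR_MM. DESeq2 called MMERVK9E_I, ERVB7_1-I_MM and ERVB4_3-LTR_MM beside ERVB3_1-LTR_MM. These names were chosen after their values were seen.

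Related retroviral names were counted in the same fits. Of the 4 RLTR10 names, LTRs that include those of MMERVK10C proviruses, 3 were tested. Between HRS and Loop 0 of these passed, and between letters 1 was higher in A, with a median log2 ratio of 0.26. Of 17 tested names of intracisternal A particles (IAP) 2 were higher in A and 2 in B. Of 3 tested ETn names 1 was higher in A. With both fractions against input, 0 names of these 3 groups were higher and 1, 2 and 1 were lower.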

How the data were processed

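Per the labels' protocols, StyI ends were tagged through an adaptor with an MmeI site and short tags were sequenced. CASAVA 1.8.2 and build mm9 are named in the submitters' processing notes. For the aligner, the handling of tags that match several repeats and the Repbase version, the entry is "not given in the sources used here". Raw counts per repeat name were deposited, with names at 0 left out, and counts per StyI fragment, of which only the totals were used (39051867 to 62928375).

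All repeat names were fitted in edgeR 4.0.16 (R 4.3.3; glmQLFit and glmQLFTest, TMM, filterByExpr with a minimum count of 10), with Benjamini-Hochberg adjusted p over all names tested and a threshold of 0.05. SE is the size of the log2 ratio over the root of its F value. Names ending in -I or _I (before _MM) were taken as internal. The letter was fitted with the fraction as a term. DESeq2 1.42.0 was an alternative, as were other scalings, no filter, no satellites and left-out libraries. The fits were run on simulated counts with known changes between the compared groups only. For the comparisons of fractions these counts held no difference by letter, and their outcome is not used here. Fitted ratios were printed for up to 5 called names per direction, otherwise for the most abundant name, and for the 3 highest and 3 lowest of HRS over Loop. Values of other names were chosen after being seen. Members and lists were chosen with earlier results of these data known. The names were matched by prefix, and a tag shared by related elements could be counted under either.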

Additional observations from a re-analysis of the deposited data

How the results depend on the processing

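Between HRS and Loop 0 names passed under each setting tried, DESeq2 included, except leaving out both replicate 2 tables (9). The ratios of ERVB4_1B-LTR_MM and ERVB4_1-LTR_MM changed sign with the letter as a term (0.12 and 0.26). Leaving out each library in turn moved ERVB4_1-LTR_MM from -1.25 to 0.15 and ERVB5_1-LTR_MM from -0.35 to 0.79. Calls against input ran from 0 to 5 for HRS, from 0 to 10 for Loop and from 0 to 2 for both fractions when a library was left out, while calls over all names ran from 0 to 69, 0 to 115 and 0 to 30. DESeq2 called 1, 3 and 4 there. Fragment table totals gave 1 call for Loop (ERVB4_3-LTR_MM, lower) and 0 for both fractions. That scaling moved the median log2 ratio of all names to 0.18 for HRS over Loop, -0.19 for Loop over input, -0.11 for both fractions over input and -0.16 for A over B. Between letters the count was 11 and ran from 5 (without HRS replicate 2 or Loop replicate 2) to 12 when a library was left out, and from 49 to 102 over all names (94 with every library). Of 126 recomputed ratios of the 9 names given for that comparison, 114 kept direction and call, 12 missed the threshold and 0 changed sign. This tally leaves out the called names ERVB4_2-I_MM and ERVB7_1-I_MM, which also missed the threshold under several settings. ERVB4_1B-LTR_MM, ERVB4_1-LTR_MM, ERVB4_1-I_MM and ERVB2_1A-I_MM passed under all 14 settings.

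With the replicate block 13 names were called between letters, including the 11 of the fit without it, and 0 between HRS and Loop. Over all 289 names the block moved the calls between letters from 94 to 113. The block fit by letter spends nearly all of the fraction tables on its terms and leaves little to estimate spread. Its added calls therefore carry little weight. Deviations of same-numbered HRS and Loop tables correlated at -0.31, -0.69 and -0.30 over 289 names. Each such pair has opposite letters, so the numbers were not taken to pair the tables. Counts under 100 per library in 5 LTR names limit what can be seen for them.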
